A study of Homo sapiens with 16 samples.

Results

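Differentiated HepaRG cells exposed to palmitic and oleic acid for 3 days were compared with vehicle-treated cells, using all genes in the 8 libraries that the labels place in those groups, of 16 libraries in the series. HepaRG is an established human liver line whose confluent cultures, when differentiated with DMSO, hold hepatocyte-like and cholangiocyte-like cells. The control group (4 libraries) received 1% BSA, and the fatty acid group (4 libraries) received 0.25 mM palmitic acid with 0.5 mM oleic acid, made fresh each day as sonicated sodium salts. All cultures shared a medium with 2% DMSO, serum, insulin and the glucocorticoid triamcinolone acetonide. The labels name BSA for the control only, and whether BSA was also in the fatty acid medium is not given in the sources used, so an effect of BSA and one of the fatty acids cannot be told apart. The other 8 libraries, 4 with 30 nM formoterol and 4 with formoterol and the same fatty acids, were used only for a repeat of the comparison. Formoterol is a beta-adrenergic agonist that raises cyclic AMP. Replicates are called independent in the labels, but separate cultures are not stated, so p-values cover only the spread among these libraries.

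Long-chain fatty acids that enter a hepatocyte are bound to coenzyme A and then esterified into triglyceride, stored in lipid droplets, exported in lipoproteins, or oxidised in mitochondria and peroxisomes. They are also ligands of the PPAR nuclear receptors, whose known liver targets include genes of oxidation, ketone body synthesis and droplet coating. Palmitic acid is a saturated and oleic acid a monounsaturated fatty acid, and mixtures with more oleic than palmitic acid are widely used to load cultured hepatocytes with lipid.

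Total counts ran from 33.3 × 1e6 to 34.9 × 1e6 in the control and from 32.5 × 1e6 to 39.2 × 1e6 in the fatty acid libraries, and 17019 genes entered the test. Levels are counts per 1e6 of the scaled library size (CPM), changes are log2 fold changes ± SE from edgeR's quasi-likelihood test with Benjamini-Hochberg adjustment over all 17019 genes, and "rose" or "fell" means an adjusted p under 0.05. Means are given ± SD (n = 4), and values listed by library follow replicates 1 to 4. The leading principal component took 31.2% of the variance and held the controls between −31.5 and −27.2 and the fatty acid libraries between 26.0 and 32.3. On the second, with 13.0%, control replicate 2 (−40.0) and fatty acid replicate 3 (−21.7) stood apart from the rest. In these bulk samples, fewer cells of a type and less RNA per cell cannot be told apart.

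Of the 17019 genes, 3334 (19.6%) changed, 1781 (10.5%) upward and 1553 (9.13%) downward, and 449 of the 3334 changed at least 2-fold (266 up, 183 down). These shares are the background against which the counts of each gene group are read in what follows. The libraries of the groups did not overlap for 3724 genes (21.9%). The median log2 fold change over all tested genes was 0.00. Protein-coding genes made up most of the calls (3088 of 13463, 22.9%), whereas 75 of 973 long intergenic noncoding genes (24 up, 51 down) and 56 of 956 antisense genes (19 up, 37 down) passed. Where no member of a list is said to have risen or fallen, edgeR called 0 in that direction; in the 18 such cases at most 4 members had an unadjusted p under 0.05 and DESeq2 called at most 1, both in the bile acid list. The number of changed genes ran from 2629 without control replicate 4 to 3511 without control replicate 2.

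**Figure D1:**
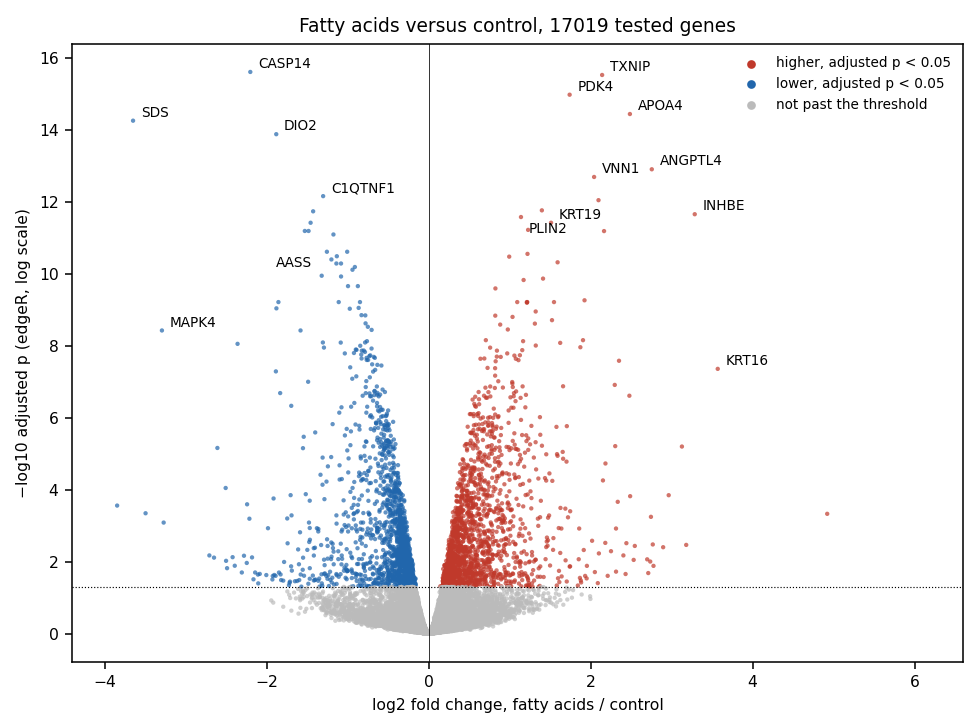
Each point is 1 of the 17019 tested genes, with the log2 fold change of fatty acids over control on the x axis and the −log10 adjusted p of edgeR's test on the y axis. Red and blue points are the 1781 higher and 1553 lower genes, the dotted line marks the threshold of 0.05, and TXNIP and CASP14 lie highest among the rises and falls.

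The largest changes outside the gene lists included several genes not usually named in lipid metabolism. CASP14, a caspase known from the cornified layer of skin, stood at 232, 227, 222 and 222 CPM in the controls and 49.7, 46.0, 51.8 and 49.1 CPM with fatty acids. No library overlapped the other group, and the change was −2.20 ± 0.06 (edgeR adjusted p = 2.5e-16). DIO2, the deiodinase that makes active thyroid hormone, was at 108, 106, 111 and 105 CPM in the controls and 29.3, 28.0, 32.0 and 27.4 CPM with fatty acids, each fatty acid library far below each control (−1.88 ± 0.07, edgeR adjusted p = 1.3e-14). C1QTNF1, a secreted C1q- and TNF-related protein, fell from 1297 ± 99.4 to 526 ± 16.3 CPM (−1.30 ± 0.06). Further falls of more than 2-fold with no overlap were found in RNF150, a transmembrane RING finger protein (−1.46 ± 0.07), DAAM2, a formin of Wnt signalling (−1.53 ± 0.08), CYP19A1, the aromatase that makes oestrogens (−1.85 ± 0.13), FPR1, the formyl peptide receptor (−1.88 ± 0.17), and RDH5, a retinol dehydrogenase (−1.48 ± 0.08). RDH5 shares most of its exon bases with a read-through transcript, so part of its counts is uncertain. Among the rises, AFM, the vitamin E-binding plasma protein afamin, went from 11.3 ± 1.22 to 48.2 ± 4.29 CPM (2.10 ± 0.10), and the organic anion transporter SLC22A7 from 25.8 ± 6.76 to 79.4 ± 10.2 CPM (1.63 ± 0.13).

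**Figure D2:**
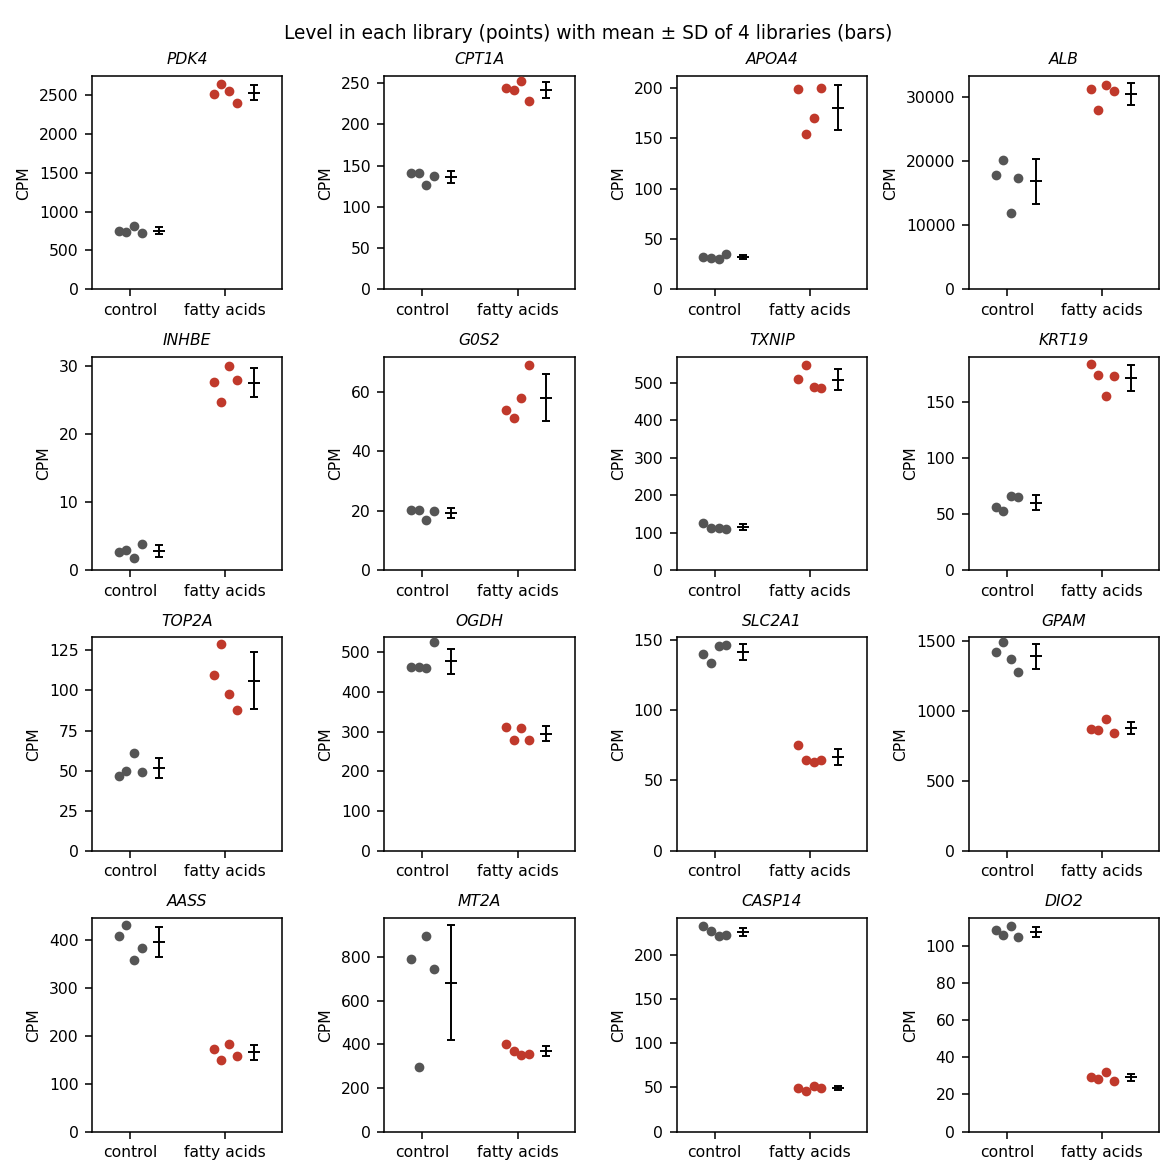
Points are CPM (y axis, linear from 0) of 16 genes in the 4 control and 4 fatty acid libraries, and bars give the mean ± SD of each group. The genes were picked from those named in the text. Most of those were named by a rule that, apart from a set of fixed genes, required the groups not to overlap. In 15 of the 16 genes each of the 4 fatty acid libraries therefore lies apart from the 4 controls with a visible gap. MT2A is the exception, with 1 control library below the fatty acid libraries. Over all 17019 tested genes, 21.9% did not overlap.

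Fatty acid uptake and activation genes rose more often than the background: of 18 tested, 10 rose and 2 fell, with a median of 0.25; 6 rose when all 16 libraries were fitted together. FABP4, a fatty acid-binding protein best known from adipocytes, was measured at 1.79, 1.89, 2.24 and 1.83 CPM in the controls and 5.27, 5.53, 6.53 and 7.97 CPM with fatty acids. Its lowest fatty acid library was above its highest control (1.71 ± 0.20). FABP1, the binding protein of hepatocytes, went from 25.2 ± 5.91 to 57.6 ± 8.78 CPM (1.19 ± 0.13), and ACSM5, a mitochondrial medium-chain acyl-CoA synthetase, from 16.9 ± 1.33 to 30.1 ± 3.18 CPM (0.83 ± 0.10). The long-chain acyl-CoA synthetases differed among themselves: ACSL4 rose (0.39 ± 0.06), ACSL5 fell (−0.27 ± 0.05), and ACSL1, at 2373 CPM in the controls, changed by 0.03 ± 0.05 with overlapping libraries (edgeR adjusted p = 0.69).

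Droplet coat genes split by member. Of 18 tested genes of the lipid droplet coat and lipolysis, 6 rose and 3 fell (5 falls without control replicate 2). PLIN1, a perilipin typical of adipocytes that restrains lipolysis, stood at 19.7, 17.4, 23.1 and 20.9 CPM in the controls and 50.1, 51.8, 55.1 and 59.2 CPM with fatty acids. PLIN2, the main coat protein of hepatocyte droplets, rose by less (261, 233, 255 and 264 CPM in the controls and 576, 551, 552 and 558 CPM with fatty acids; 1.14 ± 0.06), against 1.41 ± 0.09 for PLIN1. The groups did not overlap for either. G0S2, an inhibitor of the triglyceride lipase PNPLA2, was at 20.1, 20.2, 16.9 and 19.8 CPM in the controls and 53.9, 51.1, 57.8 and 69.1 CPM with fatty acids, and its lowest fatty acid library was more than 2-fold above its highest control (1.59 ± 0.10, edgeR adjusted p = 4.9e-11). PNPLA2 itself was 167 ± 15.8 CPM in the controls and 147 ± 7.27 CPM with fatty acids (−0.19 ± 0.07, edgeR adjusted p = 0.06), and PLIN4 and PLIN5 did not pass either (−0.16 ± 0.06 and −0.05 ± 0.33).

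Triglyceride synthesis genes moved in both directions. GPAM, the mitochondrial enzyme that acylates glycerol 3-phosphate in the first step, was at 1417, 1489, 1371 and 1277 CPM in the controls and 871, 859.7, 939 and 838 CPM with fatty acids; each fatty acid library was below each control (−0.66 ± 0.06). LPIN1, a phosphatidate phosphatase, fell by a similar amount (−0.63 ± 0.06). Genes that rose included AGPAT2, which adds the second acyl chain (0.75 ± 0.10), DGAT2, which adds the last (97.1 ± 15.0 to 157 ± 16.7 CPM, 0.69 ± 0.09), and MOGAT2, which acylates monoacylglycerol (1.21 ± 0.15). In all, 5 of 16 tested genes rose and 2 fell.

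Mitochondrial beta-oxidation genes rose in 10 of 18 and fell in 2, with a median of 0.26. CPT1A, the carnitine transferase that admits long-chain acyl groups to mitochondria, stood at 141, 141, 126 and 138 CPM in the controls and 244, 242, 252 and 228 CPM with fatty acids (0.82 ± 0.06). Each fatty acid library was more than 1.5 times the highest control. The long-chain enzymes that follow rose as well, namely ACADVL, the very-long-chain dehydrogenase (436 ± 25.4 to 738 ± 58.1 CPM, 0.76 ± 0.06), and the trifunctional protein subunits HADHA (0.51 ± 0.06) and HADHB (0.64 ± 0.06), as did the thiolase ACAA2 (0.88 ± 0.07). ACADL, another long-chain dehydrogenase, fell (−0.27 ± 0.06). Ketone body synthesis was represented by 5 genes, of which 2 rose and none fell. BDH1, which makes beta-hydroxybutyrate, rose by 1.06 ± 0.16.

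Peroxisomal and omega-oxidation genes moved in both directions. Of 23 peroxisomal genes 7 rose and 2 fell (1 fall without control replicate 1, without any 1 of the 4 fatty acid replicates, or in the fit of all 16 libraries); the bifunctional enzyme EHHADH rose by 0.43 ± 0.08. Omega-oxidation, in which cytochrome P450 family 4 enzymes hydroxylate the far end of the chain, had 4 rises and 5 falls among 10 genes (3 falls without fatty acid replicate 2, and 2 rises in the fit of all 16 libraries). CYP4A11 rose from 0.600 ± 0.126 to 2.97 ± 0.563 CPM (2.30 ± 0.30), although its counts may be shared with the near-identical CYP4A22. CYP4F2 rose by 0.79 ± 0.13 (not called in the fit of all 16 libraries) and CYP4F22 fell by 0.52 on the log2 scale. VNN1, a pantetheinase and known PPAR-alpha target, was at 42.3, 49.6, 34.5 and 37.2 CPM in the controls and 170.2, 176, 159 and 168 CPM with fatty acids, without overlap (2.04 ± 0.09, edgeR adjusted p = 2.1e-13). The PPAR receptors did not rise: PPARA was 107 ± 7.36 CPM in the controls and 118 ± 10.00 CPM with fatty acids (0.14 ± 0.07, edgeR adjusted p = 0.17), PPARD fell (−0.37 ± 0.08), and PPARG, at 13.7 CPM in the controls, gave −0.32 ± 0.13 (edgeR adjusted p = 0.1).

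Most lipoprotein genes rose. Of 18 tested genes of apolipoproteins and lipoprotein assembly, 13 rose and none fell, with a median of 0.81. APOA4, an apolipoprotein of triglyceride-rich particles, stood at 32.5, 30.9, 30.0 and 35.6 CPM in the controls and 199, 154, 169.9 and 199.6 CPM with fatty acids. The controls lay close together and each fatty acid library was at least 4 times as high (2.49 ± 0.09, edgeR adjusted p = 3.7e-15). APOA1, the main protein of high-density lipoprotein, went from 343 ± 34.5 to 774 ± 73.3 CPM (1.17 ± 0.08). APOB, the structural protein of very-low-density lipoprotein, went from 3177 ± 499 to 5498 ± 838 CPM (0.79 ± 0.09), and MTTP, which loads lipid onto it, from 103 ± 20.7 to 184 ± 13.6 CPM (0.84 ± 0.10). Among 11 lipases and angiopoietin-like proteins, 6 rose and 1 fell (none without fatty acid replicate 2). ANGPTL4, a lipase inhibitor and PPAR target, rose most (5.79 ± 0.983 to 39.1 ± 2.38 CPM, 2.76 ± 0.12).

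Secreted regulators of the activin family changed in both directions. INHBE, which encodes the liver activin subunit beta E, was at 2.73, 2.92, 1.75 and 3.86 CPM in the controls and 27.6, 24.6, 29.9 and 27.9 CPM with fatty acids. Each fatty acid library was more than 6-fold above the highest control (3.29 ± 0.16, edgeR adjusted p = 2.2e-12). INHBC, the beta C subunit, rose from 5.42 ± 1.41 to 19.8 ± 2.19 CPM (1.87 ± 0.16). INHA, the inhibin alpha subunit, fell from 9.85 ± 2.17 to 2.76 ± 0.465 CPM (−1.83 ± 0.19). INHA is not on the list of 19 tested activins, follistatins and liver-secreted factors, whose lowest change was −0.58. On that list 10 rose and 1 fell (median 0.46, with 2 falls without fatty acid replicate 4). The rises included AHSG, which encodes fetuin-A (2.30 ± 0.22), and SELENOP, the selenium carrier (0.83 ± 0.05). GDF15, a stress-responsive hormone, was 14.2 ± 0.747 CPM in the controls and 12.0 ± 2.16 CPM with fatty acids (edgeR adjusted p = 0.19).

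Sterol and fatty acid synthesis genes, both known targets of SREBP factors, did not move alike. Of 22 cholesterol synthesis genes 13 rose and 1 fell (median 0.30). HMGCS1, the cytosolic synthase at the pathway's entry, was at 151, 161, 105 and 141 CPM in the controls and 229, 223, 250.1 and 240.1 CPM with fatty acids, without overlap (0.76 ± 0.09). The sterol methyl oxidase MSMO1 rose by 0.48 ± 0.07. Of 18 genes of fatty acid synthesis and desaturation, 2 rose and 4 fell (1 rise in the fit of all 16 libraries). FASN, which makes palmitate, was at 741, 906, 852 and 856 CPM in the controls and 638, 519, 719 and 661 CPM with fatty acids and fell without overlap (−0.40 ± 0.08). SREBF1, the lipogenic factor of the family, fell too (−0.49 ± 0.09). SCD, which desaturates palmitate and stearate, rose (871 ± 175 to 1245 ± 165 CPM, 0.52 ± 0.11), with overlapping libraries and no call in the fit of all 16, and so did ELOVL2, an elongase of polyunsaturated chains (0.77 ± 0.16).

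Liver X receptor targets are a small list whose count rested on single libraries: 5 of 9 rose, but 1 without control replicate 1, fatty acid replicate 1 or fatty acid replicate 3 and in the fit of all 16 libraries, and 2 without control replicate 3 or 4 or fatty acid replicate 4. MYLIP, a ubiquitin ligase on this list, fell (−0.72 ± 0.10). Sphingolipid genes had 4 of 23 up (1 without control replicate 4 or fatty acid replicate 3, 2 without control replicate 3 and 7 without control replicate 2) and 3 down. SPTLC3, a subunit of the palmitoyl transferase that starts ceramide synthesis, fell (−0.40 ± 0.06), and so did the acid sphingomyelinase SMPD1 (−0.28 ± 0.07).

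Genes that respond to glucose through the factors MLXIPL and MLX were described first by their levels and then by shared promoter letters. TXNIP, an arrestin-fold protein that restrains glucose uptake and binds thioredoxin, stood at 125, 114, 113 and 109 CPM in the controls and 511, 548, 490.1 and 488 CPM with fatty acids. It had the smallest p of the rises, and each fatty acid library was more than 3 times as high as each control (2.14 ± 0.06, edgeR adjusted p = 3.1e-16). PKLR, the liver pyruvate kinase, rose from 5.73 ± 1.64 to 18.1 ± 2.28 CPM (1.66 ± 0.16), the related arrestin ARRDC4 from 6.29 ± 1.93 to 11.8 ± 0.886 CPM (0.91 ± 0.17), and the repressor KLF10 by 0.53 ± 0.06. MLXIPL itself, the factor known as ChREBP, fell from 270.4 ± 41.1 to 195 ± 37.2 CPM with overlapping libraries (−0.47 ± 0.10). Of 11 arrestin-domain and glucose-sensing genes, 5 rose and 1 fell. A carbohydrate response element spelled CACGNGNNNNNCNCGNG was searched on both strands of RefSeq promoters (300 bases, 250 before to 50 after each annotated start, GRCh38.p14). It was found for 169 of 27305 genes (0.619%) and for 1.03% of the 11860 tested genes with a promoter. Of the 10 list genes that had a promoter in the set, 2 held it, TXNIP and PKLR. The windows of both are shown because they hold this element and their genes rose; capitals mark the match, which begins 88 bases before the start of TXNIP (chr1:145996530-145996829, minus strand) and 126 bases before that of PKLR (chr1:155300903-155301202, minus strand), and each is printed in the gene's direction.
TXNIP: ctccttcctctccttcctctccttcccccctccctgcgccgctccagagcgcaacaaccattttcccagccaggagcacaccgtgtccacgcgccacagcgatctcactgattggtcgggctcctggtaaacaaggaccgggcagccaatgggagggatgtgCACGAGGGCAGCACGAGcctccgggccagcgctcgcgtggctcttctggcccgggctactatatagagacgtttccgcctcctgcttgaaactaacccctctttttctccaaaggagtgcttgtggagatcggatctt
PKLR: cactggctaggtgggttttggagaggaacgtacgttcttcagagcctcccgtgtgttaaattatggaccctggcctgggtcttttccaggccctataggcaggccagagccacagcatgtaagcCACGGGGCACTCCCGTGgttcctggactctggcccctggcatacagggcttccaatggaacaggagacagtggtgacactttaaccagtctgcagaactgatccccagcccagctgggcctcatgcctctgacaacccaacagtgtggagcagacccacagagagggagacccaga

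Pyruvate and sugar metabolism genes fell more often than they rose. PDK4, which phosphorylates and inactivates pyruvate dehydrogenase, was at 746, 742, 815 and 719 CPM in the controls and 2511, 2640.4, 2551 and 2397 CPM with fatty acids (1.74 ± 0.06), and its paralogues PDK1 (0.48 ± 0.08) and PDK2 (0.48 ± 0.09) rose by less. MPC1, a subunit of the mitochondrial pyruvate carrier, fell (−0.47 ± 0.09). Of 14 genes of this step, 5 fell (3 without fatty acid replicate 2 or 4) and 3 rose. Glycolysis and glucose uptake had 11 falls and 3 rises in 23 genes (median −0.27). SLC2A1, the widely expressed glucose transporter, was at 139.8, 133, 145 and 146 CPM in the controls and 75.0, 64.4, 63.4 and 64.4 CPM with fatty acids, so that each fatty acid library was below 60% of each control (−1.08 ± 0.07). HK2 (−1.10 ± 0.12), PFKFB2, a regulator of phosphofructokinase (−0.97 ± 0.09), and PKM, the pyruvate kinase of most tissues (2493 ± 172 to 1775 ± 83.9 CPM, −0.49 ± 0.06), fell as well. The liver-type transporter SLC2A2 rose instead (0.82 ± 0.12). The liver pyruvate kinase PKLR, which rose (1.66), was counted with the arrestin-domain and glucose-sensing genes and not in this list.

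Gluconeogenesis genes moved in both directions. PC, which makes oxaloacetate from pyruvate, fell (−0.57 ± 0.06), and so did the cytosolic aspartate aminotransferase GOT1 (225 ± 15.1 to 124 ± 2.55 CPM, −0.86 ± 0.06). PCK1 (0.85 ± 0.13) and the glucose-6-phosphatase G6PC (0.84 ± 0.15) rose. Over 15 genes, 5 rose and 7 fell. Glycogen genes fell in 7 of 18, including the muscle-type synthase GYS1 (−0.75 ± 0.07), while 2 rose, 1 of them PPP1R3C, a subunit that targets phosphatase to glycogen (0.61 ± 0.09). The pentose phosphate pathway had 5 falls in 10 genes and no rise.

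Tricarboxylic acid cycle genes fell in 14 of 23 and rose in 1, with a median of −0.20; 9 fell without control replicate 1, without control replicate 4, or in the fit of all 16 libraries. OGDH, a subunit of the 2-oxoglutarate dehydrogenase, was at 462, 462, 461 and 525 CPM in the controls and 313, 278, 309 and 279 CPM with fatty acids. Each fatty acid library was below each control (−0.70 ± 0.06, edgeR adjusted p = 3.3e-08). Citrate synthase CS fell from 268 ± 8.52 to 198 ± 7.86 CPM (−0.44 ± 0.06).

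Many respiratory chain genes fell by small amounts. Among 39 nuclear-encoded genes of complexes II to V, 21 fell and none rose (median −0.32; 12 falls in the fit of all 16 libraries). Complex I had 19 falls and no rise in 37 genes (median −0.29), but this count depended on single libraries, with 6 falls without control replicate 4, 9 without control replicate 1 or fatty acid replicate 3, 10 without fatty acid replicate 2, 12 without control replicate 3, and 7 in the fit of all 16 libraries. The mean level of both lists was lowest among the controls in replicate 2. NDUFA4 stood at 231, 160.4, 229.9 and 243 CPM in the controls and 155, 138, 141 and 155 CPM with fatty acids (−0.55 ± 0.09) and CYCS, cytochrome c, fell from 668 ± 38.2 to 470.5 ± 23.2 CPM (−0.51 ± 0.06). Of the 13 respiratory chain genes encoded by mitochondrial DNA, 12 fell (median −0.38), and MT-CO3, a subunit of complex IV, was at 4590.4, 3993, 4818 and 4441 CPM in the controls and 3040.1, 2726, 2981 and 3544 CPM with fatty acids (−0.54 ± 0.07). Over all 16 tested genes of the mitochondrial chromosome, 12 fell and 1 rose (median −0.37). Mitochondrial genes took 6.91 ± 0.473% of counts in the controls and 5.76 ± 0.449% with fatty acids. Reads from nuclear copies of mitochondrial DNA could not be separated in the deposited counts. PPARGC1A, a coactivator that drives mitochondrial biogenesis, fell from 107 ± 6.29 to 62.6 ± 5.99 CPM (−0.77 ± 0.07), as did its partner ESRRA (−0.72 ± 0.07), whose exons overlap TRMT112 on the other strand, and the fusion protein MFN2 (−0.36 ± 0.06). Over 29 genes of mitochondrial biogenesis, import and dynamics, 6 fell and none rose (1 rise without control replicate 2).

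**Figure D3:**
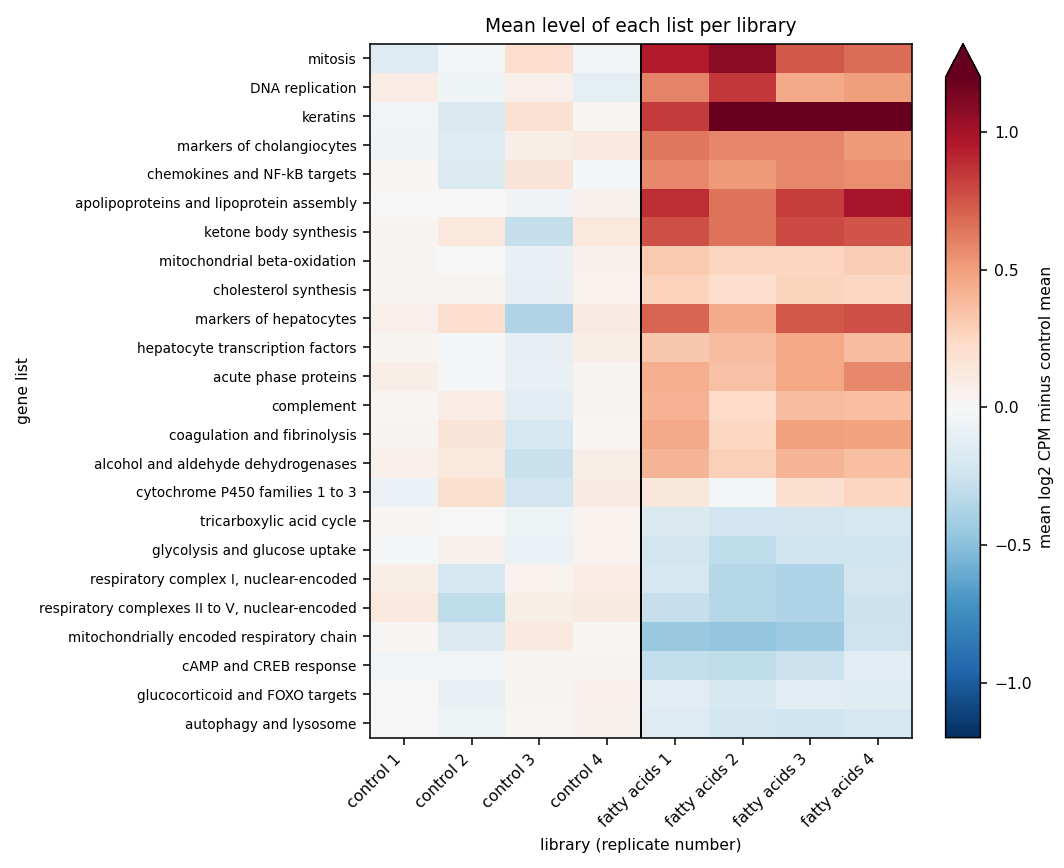
Columns are the 4 control and 4 fatty acid libraries, rows are 24 gene lists, and color gives the mean log2 CPM of the tested members minus the mean of the 4 controls. Mitosis, keratin and lipoprotein lists are higher in each fatty acid library, respiratory lists are lower in each fatty acid library than in control replicates 1, 3 and 4, and control replicate 3 is the lowest of the controls in the hepatocyte lists.

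Amino acid breakdown genes moved in both directions. Among 27 genes for branched-chain, proline, lysine and glutamine breakdown, 10 fell and 3 rose. AASS, the first enzyme of lysine breakdown, was at 407, 431, 358 and 384 CPM in the controls and 173, 148, 183 and 157 CPM with fatty acids. Each fatty acid library was at or below 60% of each control (−1.26 ± 0.07, edgeR adjusted p = 2.5e-11). BCAT2, the aminotransferase of branched-chain amino acids (−0.92 ± 0.08), and ALDH6A1, of valine breakdown (473 ± 44.1 to 266 ± 22.4 CPM, −0.83 ± 0.07), fell too. HGD, of tyrosine breakdown, fell (−0.70 ± 0.06), whereas TDO2, which starts tryptophan breakdown, rose (0.61 ± 0.11; not called in the fit of all 16 libraries). SDS, the serine dehydratase that feeds serine into pyruvate, had the largest fall of all genes described here, from 35.2 ± 3.74 to 2.80 ± 0.448 CPM (−3.65 ± 0.13), and PHGDH, which makes serine, rose (0.52 ± 0.09). CTH, the last enzyme of cysteine synthesis, fell by 0.59 on the log2 scale, and CBS, the one before it, went from 55.7 ± 10.2 to 24.5 ± 6.12 CPM (−1.18 ± 0.14), a value made uncertain by a near-identical copy of CBS in the reference genome. OTC, of the urea cycle, rose (0.92 ± 0.18; not called in the fit of all 16 libraries), whereas CPS1, the cycle's entry enzyme, gave −0.18 ± 0.08 (edgeR adjusted p = 0.13).

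Amino acid transporters moved in both directions. Of 26 transporters, 5 rose (3 without control replicate 1 or fatty acid replicate 1) and 7 fell. SLC1A3, a glutamate and aspartate transporter, stood at 115, 98.7, 105 and 112 CPM in the controls and 41.4, 41.3, 40.0 and 37.9 CPM with fatty acids, without overlap (−1.42 ± 0.07). SLC7A2, which carries cationic amino acids, fell from 1078 ± 67.2 to 718 ± 68.6 CPM (−0.59 ± 0.07), and SLC38A4, of the system A family of liver, rose from 25.5 ± 3.88 to 53.9 ± 3.50 CPM (1.08 ± 0.09). Aminoacyl-tRNA synthetases fell in 7 of 20 and rose in none, for example NARS (−0.30 ± 0.05).

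Targets of cyclic AMP fell more often than the background. Of 24 genes of the cAMP and CREB response, 11 fell and 4 rose (median −0.40). The phosphodiesterases PDE4D (16.5 ± 3.46 to 8.29 ± 1.16 CPM, −0.99 ± 0.15) and PDE7B (−0.53 ± 0.12), which degrade cAMP, fell, and so did the nuclear receptor NR4A3 (−1.26 ± 0.20) and the kinase SIK1 (−0.77 ± 0.17). CREB3L3, a liver factor of the CREB family that regulates lipid genes such as APOA4, went the other way at 73.5, 74.7, 72.2 and 79.6 CPM in the controls and 190.4, 177, 164 and 171 CPM with fatty acids, without overlap (1.23 ± 0.06). The element TGACGTCA, to which CREB binds, was found in promoters of 5 of the 20 list genes that had one. It was found for 614 of 27305 genes (2.25%) and for 3.56% of the 11860 tested genes with a promoter. Among those 5 list genes, DUSP1 and PDE7B fell. DUSP1, a phosphatase of MAP kinases, was at 560.02, 519.8, 601 and 638 CPM in the controls and 369.6, 364, 398 and 399.5 CPM with fatty acids (−0.60 ± 0.06), each fatty acid library below each control. Its window and that of PDE7B are shown with the element in capitals, 125 bases before the start of DUSP1 (chr5:172771146-172771445, minus strand) and 155 bases before that of PDE7B (chr6:135851451-135851750, plus strand).
DUSP1: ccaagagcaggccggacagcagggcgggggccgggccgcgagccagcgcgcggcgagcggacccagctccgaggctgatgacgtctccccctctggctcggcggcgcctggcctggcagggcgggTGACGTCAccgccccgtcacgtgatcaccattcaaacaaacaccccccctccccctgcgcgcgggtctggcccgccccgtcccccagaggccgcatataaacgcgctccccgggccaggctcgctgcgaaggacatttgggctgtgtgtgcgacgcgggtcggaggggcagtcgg
PDE7B: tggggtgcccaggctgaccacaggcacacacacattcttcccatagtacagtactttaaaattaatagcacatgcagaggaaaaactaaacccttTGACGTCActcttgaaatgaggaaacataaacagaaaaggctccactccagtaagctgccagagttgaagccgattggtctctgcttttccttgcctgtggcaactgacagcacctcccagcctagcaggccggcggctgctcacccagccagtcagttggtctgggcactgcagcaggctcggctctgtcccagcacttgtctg

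Glucocorticoid and FOXO targets fell in 9 of 18 and rose in 4, with the synthetic glucocorticoid present in both groups. TSC22D3, known as GILZ, fell from 1784 ± 89.6 to 1249 ± 76.7 CPM (−0.51 ± 0.06) and KLF9 from 446 ± 21.3 to 301 ± 8.58 CPM (−0.57 ± 0.06). CITED2, a transcriptional coregulator, rose from 157 ± 8.30 to 314 ± 6.17 CPM (1.00 ± 0.06). Metallothioneins, small metal-binding proteins that glucocorticoids and zinc induce, were listed together with a few selenoproteins: 7 of 15 fell and 2 rose (1 rise in the fit of all 16 libraries). MT2A was at 790.00, 298, 897 and 744 CPM in the controls and 403, 369.7, 352 and 356 CPM with fatty acids. Control replicate 2 lay below the 4 fatty acid libraries and the other controls well above them, so the groups overlapped (−0.88 ± 0.19, edgeR adjusted p = 0.0015; not called in the fit of all 16 libraries). MT1X (125 ± 33.3 to 68.9 ± 9.44 CPM, −0.86 ± 0.13) and MT1F (−1.40 ± 0.17) fell without overlap. Metallothionein genes are close copies of one another, and reads shared between them may have been divided or dropped. GPX3, a secreted selenoprotein with 7990.2 CPM in the controls, fell by 0.51 on the log2 scale.

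Insulin and clock genes moved in both directions. Insulin and insulin-like growth factor signalling had 5 rises (3 without fatty acid replicate 3) and 4 falls in 21 genes: IGFBP1 (0.75 ± 0.18) and IGFBP2 (0.88 ± 0.11), binding proteins of insulin-like growth factors, rose, and INSR (−0.28 ± 0.07) and FOXO1 (−0.38 ± 0.06) fell. Of 20 clock genes 4 rose (2 without control replicate 1, fatty acid replicate 1 or fatty acid replicate 4) and 4 fell, the latter including the output factor TEF (−0.60 ± 0.08) and PER1 (−0.35 ± 0.08).

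Hepatocyte genes were higher with fatty acids across several functions. Of 20 hepatocyte markers, all tested, 16 rose and 1 fell (median 0.72), and their summed level was 32199 to 46509 CPM in the controls and 60685 to 69158 CPM with fatty acids. ALB, albumin, was at 17794, 20252, 11907 and 17469 CPM in the controls and 31260.1, 28008, 31952 and 30923 CPM with fatty acids. Control replicate 3 was the lowest library, and each fatty acid library was above each control (0.86 ± 0.10, edgeR adjusted p = 9.7e-07). TF, transferrin, went from 843 ± 195 to 1941 ± 291 CPM (1.20 ± 0.12), the asialoglycoprotein receptor subunit ASGR1 from 17.6 ± 1.59 to 43.7 ± 5.58 CPM (1.31 ± 0.10), and CYP2E1, which oxidises ethanol and fatty acids, from 256 ± 27.4 to 596 ± 31.9 CPM (1.22 ± 0.07). Without control replicate 3, 3 markers fell, and 2 without fatty acid replicate 1. The 1 marker that fell with all libraries was TAT, the tyrosine aminotransferase, at 8.57, 13.4, 4.74 and 11.6 CPM in the controls and 4.88, 3.79, 5.23 and 4.27 CPM with fatty acids (−1.07 ± 0.23), with overlap. CYP3A4, the main drug-metabolising P450, did not pass (2227 ± 474 and 1952 ± 149 CPM, edgeR adjusted p = 0.21).

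Transcription factors of the hepatocyte rose in 10 of 19 and fell in 4. CEBPA was at 7.66, 5.82, 5.83 and 6.78 CPM in the controls and 11.4, 11.7, 13.6 and 12.3 CPM with fatty acids, without overlap (0.91 ± 0.14). NR5A2 (0.86 ± 0.10), PROX1 (0.80 ± 0.12) and HNF4A (0.35 ± 0.07) rose by less than 2-fold, HNF4A without a call in the fit of all 16 libraries. SOX9, a factor of ductal and progenitor cells, fell from 48.9 ± 3.30 to 29.7 ± 2.35 CPM (−0.72 ± 0.08), and TBX3 fell too (−0.53 ± 0.09).

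Many plasma protein genes of 3 lists rose. Coagulation and fibrinolysis had 15 rises and 2 falls in 26 genes, complement 14 and 2 in 29, and acute phase proteins 11 and none in 19; in the fit of all 16 libraries complement had 9 rises and acute phase proteins 6. KLKB1, plasma prekallikrein, rose by 1.04 ± 0.10, the complement component C8B by 1.66 ± 0.22 and factor B, CFB, by 0.74 ± 0.07. SERPINA1, alpha-1-antitrypsin, rose from 7473 ± 552 to 12198 ± 765 CPM (0.71 ± 0.06) and LCN2, a siderophore-binding protein of inflammation, from 5.58 ± 1.15 to 13.5 ± 1.13 CPM (1.27 ± 0.15). FGA, a fibrinogen chain, gave 0.08 ± 0.05 (edgeR adjusted p = 0.33). SERPINA5, an inhibitor of protein C, went against its family at 319, 311, 288 and 304 CPM in the controls and 156, 148, 153 and 152 CPM with fatty acids (−1.0047 ± 0.06), and TFPI, the inhibitor of tissue factor, also fell (−0.43 ± 0.05).

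Bile acid and alcohol enzymes rose more often than they fell, and drug enzymes did so less clearly. Bile acid synthesis and transport had 9 rises and no fall in 19 genes (1 fall without control replicate 3 or fatty acid replicate 1 or 4), with CYP7A1, the rate-limiting enzyme, at 1.01 ± 0.22 and the phospholipid exporter ABCB4 at 0.71 ± 0.10. Alcohol and aldehyde dehydrogenases rose in 10 of 17 and fell in 3, led by RDH16, a retinol dehydrogenase (1.32 ± 0.17). Cytochrome P450 families 1 to 3 had 5 rises and 3 falls in 21, with a median of −0.05 (1 fall without control replicate 1 or fatty acid replicate 3 and in the fit of all 16 libraries). Conjugation enzymes had 12 rises and 6 falls in 33, but 6 rises and 5 falls in the fit of all 16 libraries. The sulfotransferase SULT1B1 was among the rises (1.07 ± 0.14). Iron genes rose in 7 of 15 and fell in 2, including HJV, a coreceptor that controls hepcidin (0.98 ± 0.17), and the transferrin receptor TFRC (0.38 ± 0.06).

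**Figure D4:**
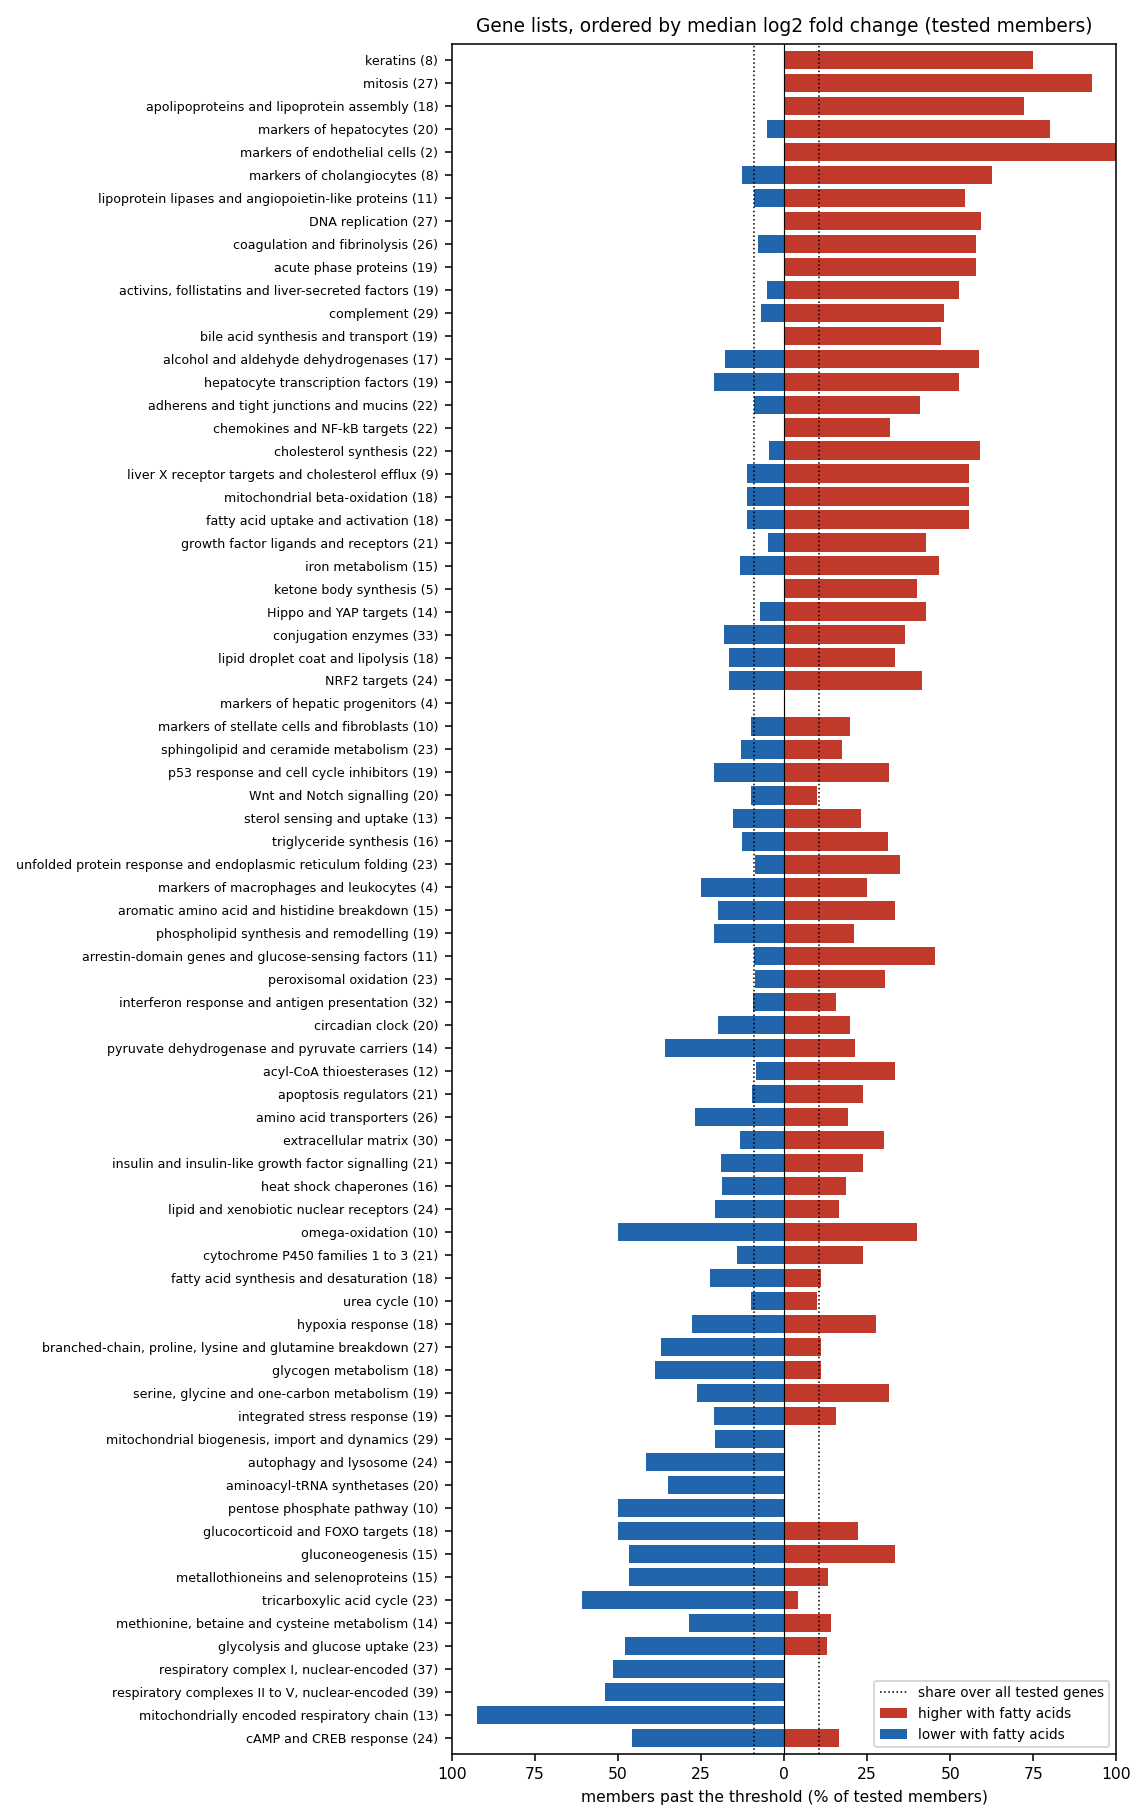
Bars give the share of tested members that were higher (right, red) or lower (left, blue) with fatty acids in 74 gene lists, ordered by median log2 fold change, with the number of tested members in brackets. Dotted lines mark the shares over all 17019 genes, 10.5% up and 9.13% down; keratins and mitosis lie at the top and the cAMP response and respiratory lists at the bottom.

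Most keratins and several cholangiocyte markers rose. The labels describe the cells as hepatocyte- and cholangiocyte-like, but of 12 cholangiocyte markers 8 could be tested: EPCAM had no count in any of the 8 libraries and KRT7 6 to 15. Of the 8, 5 rose and 1, SOX9, fell, and the summed level of the 8 was 299 to 326 CPM in the controls and 495 to 558 CPM with fatty acids. KRT19 was at 56.2, 52.5, 66.4 and 64.9 CPM in the controls and 183, 173, 155 and 173 CPM with fatty acids, more than 2-fold above the highest control in each fatty acid library (1.51 ± 0.08, edgeR adjusted p = 3.9e-12). CD24, a surface glycoprotein of immature and biliary cells, went from 51.8 ± 2.31 to 137 ± 9.35 CPM (1.40 ± 0.07), and the matrix protease MMP7 from 33.6 ± 9.63 to 61.5 ± 6.98 CPM (0.87 ± 0.13). Keratins rose in 6 of 8 and fell in none. KRT16, a keratin of stressed epidermis, went from 0.556 ± 0.376 to 6.64 ± 0.728 CPM (3.57 ± 0.33) and KRT6A from 4.03 ± 0.865 to 15.1 ± 1.19 CPM (1.91 ± 0.15), although both have close copies. KRT8 (0.62 ± 0.06), the type of simple epithelia, rose from a level of 521 CPM.

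Junction, matrix and growth factor genes moved in both directions. Adherens and tight junctions and mucins had 9 rises and 2 falls in 22 genes (1 fall without control replicate 1 or 4 or fatty acid replicate 2, 3 or 4). CDH1, E-cadherin, stood at 22.4, 29.4, 21.9 and 23.6 CPM in the controls and 57.9, 46.2, 59.0 and 53.8 CPM with fatty acids (1.16 ± 0.10), and the tight junction protein OCLN rose by 1.01 ± 0.10. MUC13, a transmembrane mucin, fell from 91.3 ± 2.61 to 39.8 ± 3.16 CPM (−1.20 ± 0.07). Extracellular matrix genes had 9 rises (5 without fatty acid replicate 1) and 4 falls in 30, with COL12A1 at 0.55 ± 0.07 and SPARC at −0.65 ± 0.08. Growth factor ligands and receptors had 9 rises and 1 fall in 21 (2 falls without fatty acid replicate 2): the receptor ERBB3 rose from 106 ± 3.69 to 158 ± 8.15 CPM (0.57 ± 0.06) and the EGF-receptor ligand AREG fell from 17.1 ± 2.12 to 8.77 ± 0.877 CPM (−0.96 ± 0.12). Hippo and YAP targets had 6 rises and 1 fall in 14 (2 falls without control replicate 4 or fatty acid replicate 3), and Wnt and Notch genes 2 of each in 20, a share near the background (1 rise without control replicate 1 or 2 or fatty acid replicate 1, 2 or 4 and in the fit of all 16 libraries). Markers of other cell types were tested as far as they were detected. Of 11 macrophage and leukocyte markers 4 were tested (summed level 23.6 to 28.3 CPM in the controls and 21.0 to 24.5 CPM with fatty acids), and CD68, PTPRC and CD3E had 0 to 3 counts per library. Of 10 endothelial markers 2 were tested and both rose (1 without control replicate 1, 2 or 4 or fatty acid replicate 1, 2 or 4 and in the fit of all 16 libraries), while VWF, CDH5 and ERG had 0 to 6 counts. Of 14 stellate cell and fibroblast markers 10 were tested, 2 rose (0 without control replicate 4; 1 without control replicate 1 or fatty acid replicate 1 or 2 and in the fit of all 16 libraries) and 1 fell (2 without fatty acid replicate 1; summed level 673 to 842 CPM in the controls and 795 to 922 CPM with fatty acids), and COL1A2 had no count. None of the 4 tested progenitor markers passed, at a summed level of 38.7 to 46.4 CPM in the controls and 42.3 to 53.1 CPM with fatty acids. The part of any shift in cell composition in these results was not tested.

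Most cell cycle genes rose. Of 27 tested mitosis genes, 25 rose and none fell (median 0.90), and of 27 DNA replication genes 16 rose and none fell (median 0.50). TOP2A, the topoisomerase that untangles sister chromosomes, was at 46.6, 50.0, 61.1 and 49.4 CPM in the controls and 109.7, 129, 97.9 and 87.5 CPM with fatty acids. Each fatty acid library was above each control, and fatty acid replicate 2 was the highest (1.03 ± 0.10, edgeR adjusted p = 1e-07). MKI67, the antigen Ki-67, stood at 15.1, 23.9, 27.8 and 21.4 CPM in the controls and 46.3, 52.4, 44.3 and 36.2 CPM with fatty acids (1.02 ± 0.13), the mitotic kinase CDK1 went from 9.62 ± 0.983 to 20.1 ± 4.20 CPM (1.06 ± 0.14), and the kinetochore protein CENPF from 15.8 ± 1.55 to 31.4 ± 4.29 CPM (0.99 ± 0.11). For DNA replication, RRM2, which makes deoxynucleotides, rose from 37.1 ± 3.95 to 80.1 ± 13.0 CPM (1.11 ± 0.10) and UHRF1, which copies DNA methylation marks, from 1.67 ± 0.290 to 4.52 ± 0.529 CPM (1.44 ± 0.22). MCM7, a subunit of the replicative helicase, rose by 0.37 ± 0.08, and PCNA, the polymerase clamp, did not pass (70.7 ± 3.89 and 80.0 ± 8.50 CPM, edgeR adjusted p = 0.11). The cell cycle inhibitor CDKN1A rose slightly (0.23 ± 0.06); p53 response genes and cell cycle inhibitors had 6 rises and 4 falls in 19.

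The letters CCAAT, in either orientation, were found in promoters of 16 of the 21 mitosis genes that had one. They were found for 10846 of 27305 genes (39.7%) and for 43.4% of the 11860 tested genes with a promoter. TOP2A and CENPF held 4 copies each. The E2F site TTTCGCGC was found for 172 of 27305 genes (0.630%) and for 1.10% of the tested genes with a promoter. It was found for 5 of 23 replication genes, and 3 of those 5 rose, including UHRF1 and MCM7. The windows of TOP2A, CENPF, UHRF1 and MCM7 are shown because they hold these letters and their genes rose. Capitals mark CCAAT or its complement ATTGG in TOP2A (chr17:40417847-40418146, minus strand) and CENPF (chr1:214602945-214603244, plus strand). They mark TTTCGCGC, beginning 160 and 9 bases before the start, in UHRF1 (chr19:4909894-4910193, plus strand) and MCM7 (chr7:100101348-100101647, minus strand). A match describes the letters only and does not show that a factor binds there.
TOP2A: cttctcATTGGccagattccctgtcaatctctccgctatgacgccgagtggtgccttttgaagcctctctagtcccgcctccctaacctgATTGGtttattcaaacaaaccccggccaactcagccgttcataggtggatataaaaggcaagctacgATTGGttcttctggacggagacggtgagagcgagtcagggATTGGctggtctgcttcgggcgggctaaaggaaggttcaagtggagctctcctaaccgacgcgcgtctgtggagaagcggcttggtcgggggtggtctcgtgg
CENPF: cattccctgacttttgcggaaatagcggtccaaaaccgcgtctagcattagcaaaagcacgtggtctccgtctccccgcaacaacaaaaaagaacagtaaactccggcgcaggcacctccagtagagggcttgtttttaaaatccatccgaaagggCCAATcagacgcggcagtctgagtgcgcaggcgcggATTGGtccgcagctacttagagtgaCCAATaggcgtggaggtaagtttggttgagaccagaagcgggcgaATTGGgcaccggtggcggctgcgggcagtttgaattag
UHRF1: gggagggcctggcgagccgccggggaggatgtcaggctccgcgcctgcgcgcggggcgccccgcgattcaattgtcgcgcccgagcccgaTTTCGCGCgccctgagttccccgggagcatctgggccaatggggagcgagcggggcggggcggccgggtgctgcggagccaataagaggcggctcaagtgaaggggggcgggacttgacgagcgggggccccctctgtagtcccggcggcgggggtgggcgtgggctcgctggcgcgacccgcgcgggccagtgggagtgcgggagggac
MCM7: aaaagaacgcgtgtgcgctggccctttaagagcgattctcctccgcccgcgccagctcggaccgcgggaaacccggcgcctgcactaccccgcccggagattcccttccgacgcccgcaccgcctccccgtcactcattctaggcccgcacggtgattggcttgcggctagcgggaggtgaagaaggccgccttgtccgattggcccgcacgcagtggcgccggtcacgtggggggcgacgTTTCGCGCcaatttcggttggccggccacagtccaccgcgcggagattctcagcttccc

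The sterol response element TCACNCCAC was found in none of the 17 cholesterol synthesis genes with a promoter in the set (379 of 27305 genes, 1.39%). The PPAR element AGGTCANAGGTCA was found in none of 16 beta-oxidation genes (8 of 27305, 0.0293%). Among the 11860 tested genes with a promoter, the shares were 1.44% and 0.0422%. The absences from these lists concern the letters in these windows only.

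Stress lists differed in direction. Integrated stress response genes had 3 rises and 4 falls in 19; DDIT3, the factor CHOP, was 7.12 ± 0.969 CPM in the controls and 6.25 ± 0.634 CPM with fatty acids (edgeR adjusted p = 0.46), ATF3 was 13.1 ± 0.737 and 12.7 ± 1.49 CPM (edgeR adjusted p = 0.85), and CHAC1, which degrades glutathione, fell (−0.87 ± 0.16). DDIT3 overlaps genes with more counts on the other strand. Unfolded protein response genes had 8 rises and 2 falls in 23. The rises went to 2 without fatty acid replicate 3, 4 without control replicate 4 or fatty acid replicate 1, and 5 without control replicate 3, and the falls to 1 without control replicate 1 or 4 or fatty acid replicate 2, 3 or 4 and in the fit of all 16 libraries. PDIA4, a disulfide isomerase of the endoplasmic reticulum, rose (0.42 ± 0.06), and HSPA5, its main chaperone, gave 0.08 ± 0.05 (edgeR adjusted p = 0.28). NRF2 targets had 10 rises and 4 falls in 24, among them AKR1B10, an aldo-keto reductase (225 ± 19.7 to 347 ± 18.5 CPM, 0.62 ± 0.07), and GCLM, of glutathione synthesis (0.41 ± 0.06). Heat shock chaperones had 3 of each direction in 16 (5 falls without control replicate 2). Autophagy and lysosome genes fell in 10 of 24 (6 without control replicate 4 or fatty acid replicate 2) and rose in none, for example the autophagy protein GABARAPL1 (−0.54 ± 0.07) and the protease CTSB (−0.38 ± 0.06).

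Inflammatory genes rose in part. Of 22 chemokines and NF-kB targets 7 rose and none fell. CX3CL1, a membrane-tethered chemokine, was at 9.81, 8.00, 8.08 and 9.12 CPM in the controls and 24.3, 24.2, 26.7 and 27.1 CPM with fatty acids, more than 2-fold above the highest control in each fatty acid library (1.55 ± 0.11, edgeR adjusted p = 6.2e-10). CXCL8, interleukin 8, rose from 23.8 ± 1.31 to 35.0 ± 4.01 CPM (0.56 ± 0.09), and IL6 was 0.362 ± 0.207 CPM in the controls and 0.295 ± 0.178 CPM with fatty acids (edgeR adjusted p = 0.79). Interferon response and antigen presentation had 5 rises and 3 falls in 32. The rises went to 3 without any 1 of control replicates 1, 2 and 4 or of the 4 fatty acid replicates. The shares of this list, 15.6% up and 9.38% down, were near the background of 10.5% and 9.13%. The hypoxia response had 5 rises (3 without control replicate 3) and 5 falls in 18. Apoptosis regulators had 5 rises and 2 falls in 21. The rises went to 1 without control replicate 4, 2 without control replicate 1 or fatty acid replicate 1 or 2, and 3 without control replicate 2 or fatty acid replicate 3, and the falls to 1 without control replicate 1 or 4 or fatty acid replicate 1, 3 or 4 and in the fit of all 16 libraries.

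Among noncoding genes, LINC02499 rose from 0.506 ± 0.0802 to 2.26 ± 0.458 CPM (2.15 ± 0.33). CASC15, a long noncoding gene, fell from 7.83 ± 1.13 to 2.70 ± 0.583 CPM (−1.54 ± 0.19), and LINC01411 from 2.17 ± 0.967 to 0.466 ± 0.220 CPM (−2.21 ± 0.43).

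The same fatty acids were also given together with formoterol, and the 8 libraries with formoterol repeat the comparison with no library in common. All 16 libraries were fitted together, so the control and fatty acid libraries entered the filter, scaling and dispersion of this repeat. In that fit, 3342 of 18121 genes changed with formoterol (18.4%, with 1717 up, 9.48%, and 1625 down, 8.97%). With only the 2 formoterol groups fitted, 2637 changed (1437 up, 1200 down). The test of the difference between the 2 effects of fatty acids, the interaction, called 997 genes (5.50%). Of these, 384 were up and 613 down (3.38%), where down means a lower change with formoterol. The split depended on scaling. With library totals, the median of all genes was 0.14 in the comparison with formoterol and 0.17 in the interaction, against 0.008 and 0.011 with TMM factors. The share of higher calls went from 51.4% to 81.0% and from 38.5% to 74.6%. The interaction count went to 444 without control replicate 3, 585 without formoterol replicate 4, 604 without fatty acid replicate 1, 640 without control replicate 4 and 653 without fatty acid replicate 3. Cell cycle genes rose there too, with 26 of 27 mitosis genes (median 1.23) and 24 of 27 replication genes (median 0.92) up, and 0 of either list were called by edgeR in the interaction, where 7 replication and 3 mitosis genes had an unadjusted p under 0.05 and DESeq2 called 2 and 1. Respiratory genes of complexes II to V fell in 23 of 39 and mitochondrially encoded ones in 11 of 13; edgeR called 0 of either in the interaction (6 and 1 at an unadjusted p under 0.05, 3 and 0 by DESeq2). Tricarboxylic acid cycle genes fell in 19 of 23. Keratins rose in 6 of 8 with formoterol, and edgeR called 0 in the interaction (3 at an unadjusted p under 0.05, 1 by DESeq2). With each of the 16 libraries left out in turn, at most 2 members of any 1 of these 5 lists with no interaction call were called.

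Hepatocyte genes took another course with formoterol. Of 20 hepatocyte markers 1 rose and 8 fell there, with a median of −0.43; without combination replicate 2, which stands apart from the others, 2 rose and 9 fell, with a median of −0.20. The interaction was called for 15 of the 20, all downward. This count was 7 without control replicate 3, 8 without fatty acid replicate 1, and 9 without control replicate 4, fatty acid replicate 3 or formoterol replicate 1, 3 or 4. ALB gave −0.53 ± 0.20 with formoterol (edgeR adjusted p = 0.066) against 0.86 ± 0.10 without (interaction −1.39 ± 0.28, edgeR adjusted p = 0.0068). CYP7A1 fell with formoterol (−1.62 ± 0.32) and rose without (1.01 ± 0.22; interaction −2.63 ± 0.45). Cholesterol synthesis had 12 interaction calls downward in 22 (7 without control replicate 3, fatty acid replicate 1 or formoterol replicate 4), with HMGCS1 at −0.42 ± 0.15 with formoterol (edgeR adjusted p = 0.065) and 0.76 ± 0.09 without. Coagulation and complement had 10 and 7 downward calls, and 0 each without control replicate 3. The coagulation count was 6 or lower without any 1 of 8 other libraries (control replicates 1 and 4, fatty acid replicates 1, 3 and 4 and formoterol replicates 1, 3 and 4), and the complement count 4 or lower without fatty acid replicate 1, 3 or 4 or formoterol replicate 3 or 4. TXNIP (2.19 ± 0.07 with formoterol), PDK4 (1.76 ± 0.07) and CPT1A (0.83 ± 0.06) were not called in the interaction, with values of 0.05, 0.01 and −0.00. PLIN1 and PLIN2 rose by more with formoterol (2.08 ± 0.10 and 1.66 ± 0.06; interaction 0.66 ± 0.14 and 0.51 ± 0.08). The falls of CASP14 and DIO2 were smaller with formoterol (−0.89 ± 0.08 and −0.88 ± 0.07), with interaction values of 1.31 ± 0.11 (edgeR adjusted p = 9.4e-07) and 0.99 ± 0.10 (edgeR adjusted p = 1.1e-05).

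**Figure D5:**
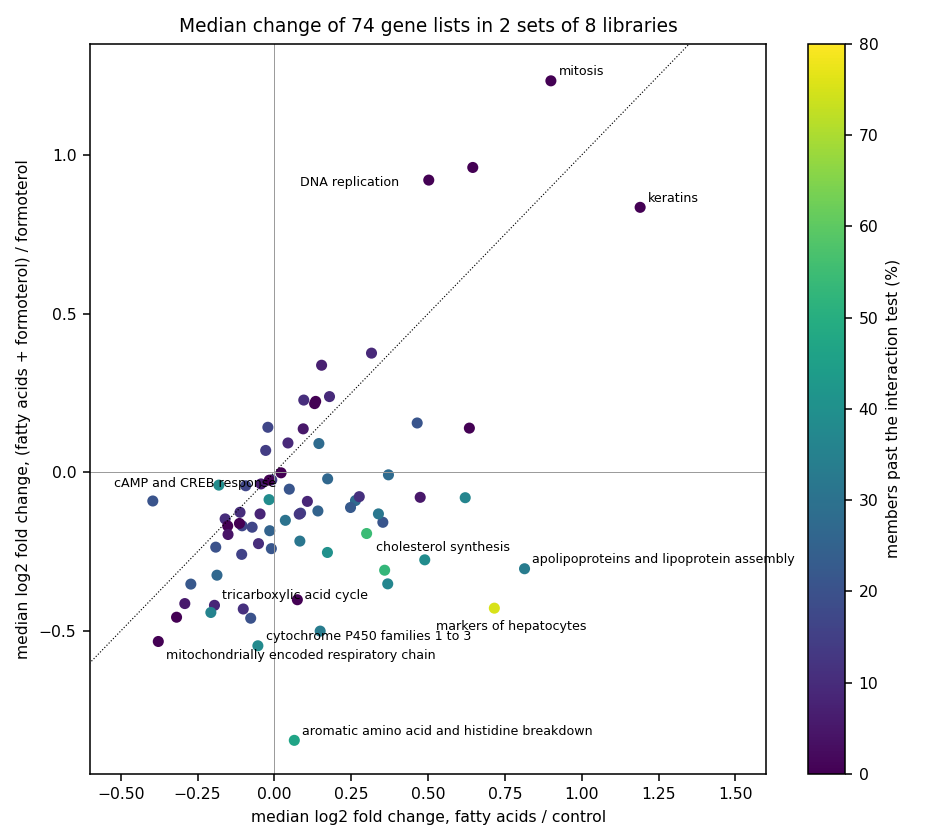
Each point is 1 of 74 gene lists, with the median log2 fold change of fatty acids over control on the x axis and of fatty acids with formoterol over formoterol on the y axis; color is the share of members called in the interaction and the dotted line marks equal values. Mitosis and DNA replication lie above the line at the upper right, and hepatocyte markers, with 15 of 20 members called, lie below it.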

How the data were processed

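Poly-A RNA was sequenced from 16 libraries, of which the 4 control and 4 fatty acid libraries make the main comparison. The authors deposited a table of raw counts per gene. A mouse build, mm39, is given in the submitters' processing notes beside HISAT2 2.0.5 and DESeq2, yet each of the 58735 genes in the table has the ID, name and coordinates of human GENCODE release 29. How reads were counted, and on which strand, is not given in the sources used, so overlapping genes on opposite strands cannot be told apart. Of 193 genes named with values, 14 share exon bases with a gene holding more than 10% of their counts.

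Counts were filtered with filterByExpr of edgeR 4.0.16, which left 17019 genes and at least 99.9% of the counts of each library, scaled with TMM factors and fitted by quasi-likelihood over the 8 libraries (degrees of freedom: 6 residual, 15.6 prior; dispersion 0.0183), with Benjamini-Hochberg adjustment over all genes at 0.05. The comparison with formoterol and the interaction were fitted over 16 libraries and 18121 genes. No count was altered, and CPM are counts per 1000000 of the TMM-scaled library size. Depth was 32.5 × 1e6 to 39.2 × 1e6 counts per library, and no pair of libraries agreed within sampling noise.

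The 74 gene lists (1430 distinct genes, 1304 tested) are described by counts and medians, without set tests. The members and lists were chosen with earlier results of these data known. Genes are named by a rule: protein-coding genes past the threshold without overlap between the groups' libraries, namely the 15 largest rises and falls that reached 2 CPM and the 10 largest that reached 50 CPM in a group mean, the 4 members of each list with the lowest p, 3 rises and 3 falls of noncoding genes that reached 2 CPM, and a set of fixed genes such as PPARA and PLIN2. Some genes that the rule named are not reported here. A further 37 list members (30 past the threshold) were named after their values were seen. Promoters are RefSeq's, 35116 windows for 27305 genes on GRCh38.p14, and a gene counts as holding a motif if any of its windows does. Alternatives were DESeq2 1.42.0, its size factors, library totals, other filters, protein-coding genes alone, the replicate block, each library left out and the 16-library fit. R 4.3.3 and Python 3.11.15 were used, and the fit was tested on simulated data.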

Additional observations from a re-analysis of the deposited data

Results flagged for a closer look

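In 20 of 386 groups of 4 libraries, 1 library lay far from the other 3 of its group, past Dixon's 95% critical value; chance alone gives about 1 in 20. Control replicate 1 stood apart with MYLIP at 25.9 CPM (27.3 to 27.4 CPM in the others). Control replicate 2 stood apart with APOB at 3919.96 CPM (2866 to 3004 CPM in the others), CTSB at 793 CPM (893 to 909 CPM in the others), DGKI at 5.26 CPM (1.74 to 2.18 CPM in the others) and NDUFA4 at 160.4 CPM (229.9 to 243 CPM in the others). Control replicate 3 stood apart with G0S2 at 16.9 CPM (19.8 to 20.2 CPM in the others), PCK1 at 6.93 CPM (9.42 to 9.64 CPM in the others) and UHRF1 at 2.10 CPM (1.48 to 1.54 CPM in the others). Control replicate 4 stood apart with OGDH at 525 CPM (461 to 462 CPM in the others). Fatty acid replicate 1 stood apart with ACADL at 169 CPM (179 to 181 CPM in the others), FGA at 21489 CPM (19464 to 19803 CPM in the others) and SLC2A1 at 75.0 CPM (63.4 to 64.4 CPM in the others). Fatty acid replicate 2 stood apart with ABCB4 at 56.0 CPM (66.4 to 67.5 CPM in the others) and CYP4F2 at 58.2 CPM (85.6 to 90.0 CPM in the others). Fatty acid replicate 3 stood apart with INSR at 121 CPM (111 to 112 CPM in the others), KLF9 at 314 CPM (295 to 298 CPM in the others), KRT8 at 755 CPM (808 to 817 CPM in the others), PCK1 at 13.8 CPM (16.5 to 17.0 CPM in the others) and SELENOP at 719.9 CPM (682 to 685 CPM in the others). Fatty acid replicate 4 stood apart with MLXIPL at 250.3 CPM (172 to 183 CPM in the others).

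The change with fatty acids differed between cultures without and with formoterol, by edgeR's interaction test with Benjamini-Hochberg adjustment, for 65 of the 193 genes named with values. Values are the log2 change with formoterol minus that without. Library totals in place of TMM factors shift them upward, and the median over all genes was then 0.17 in place of 0.011. No gene changed direction under library totals, but ACAA2 and CITED2 were no longer called. 42 of the 65 were called with each of the 16 libraries left out in turn. Among genes of lipid metabolism, the retained values below 0 were APOA1 (−1.46), G0S2 (−1.23), MTTP (−1.18), HMGCS1 (−1.18), ACSM5 (−1.03), EHHADH (−0.91), VNN1 (−0.88) and MSMO1 (−0.76). Those above 0 in lipid metabolism were PLIN4 (0.48), PLIN2 (0.51) and PLIN1 (0.66). Among genes of hepatocyte function, the retained values below 0 were CYP7A1 (−2.63), CYP3A4 (−1.65), AFM (−1.53), ASGR1 (−1.40), ALB (−1.39), NR5A2 (−1.0003), CPS1 (−0.68) and SELENOP (−0.50). Among genes of sugar and amino acid metabolism, the retained values below 0 were G6PC (−1.78), PKLR (−1.75), SLC2A2 (−1.34), SLC38A4 (−1.25) and PPP1R3C (−0.75). Those above 0 in sugar and amino acid metabolism were SLC1A3 (0.43), SLC7A2 (0.57) and SDS (0.93). Among genes of other functions, the retained values below 0 were CX3CL1 (−1.23), OCLN (−1.09), CDH1 (−0.97) and CITED2 (−0.41). Those above 0 in other functions were TSC22D3 (0.38), DUSP1 (0.39), C1QTNF1 (0.63), RNF150 (0.67), GPX3 (0.73), DIO2 (0.99), DAAM2 (1.05), CASP14 (1.31), INHA (1.49), FPR1 (1.63) and LINC01411 (2.32).

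23 were not called without control replicate 3, and most of these were also not called without other libraries. CEBPA, CYP4F2, GYS1, HNF4A, OTC and SCD lost the call only without control replicate 3. MUC13 lost it in 14 of the 16 fits with 1 library left out, and AHSG and FOXO1 in 11 each. Among genes of lipid metabolism, the less stable values below 0 were BDH1 (−1.69), CYP4F2 (−1.56), SCD (−1.41), DGAT2 (−1.04) and ACAA2 (−0.45). Among genes of hepatocyte function, the less stable values below 0 were AHSG (−2.15), OTC (−1.98), RDH16 (−1.64), TAT (−1.60), TF (−1.48), HJV (−1.42), CYP2E1 (−1.28), CEBPA (−1.15), AADAC (−1.04), KLKB1 (−1.04), PROX1 (−0.96) and HNF4A (−0.76). Among genes of sugar and amino acid metabolism, the less stable values above 0 were GYS1 (0.37) and SLC2A1 (0.41). Among genes of other functions, the less stable values below 0 were IGFBP2 (−0.70). Those above 0 in other functions were FOXO1 (0.32), MUC13 (0.36) and PER1 (0.52).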

How the results depend on the processing

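The number of genes changed by fatty acids stayed within 1.5 times 3334 under all 17 alternatives. It was 3322 with DESeq2 size factors, 3327 with library totals, 3370 without a filter, 3407 with at least 1 CPM in 4 libraries, 3626 with DESeq2, 3242 for protein-coding genes alone, 2998 in the fit of all 16 libraries and 3587 in that fit without combination replicate 2. With each of the 8 libraries left out in turn it ran from 2629 to 3511 (1389 to 1877 up, 1218 to 1634 down). The 8-library and 16-library fits shared 2848 calls.

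No pairing by replicate number was seen in the control and fatty acid libraries: the correlations of same-numbered deviations were 0.05, −0.01, −0.05 and 0.00, and not every library correlated best with its own number. Whether same-numbered libraries shared a batch was not tested. With the replicate block, 3186 genes were called, 3085 of them also called without it; 3447 were called in the comparison with formoterol and 1089 in the interaction.

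Library totals gave 2965 rises and 696 falls with formoterol, and 1030 rises and 351 falls in the interaction. The interaction count was 1523 without a filter, with 646 up (628 up with DESeq2). Left-out libraries gave 2479 to 3351 changed genes with formoterol (1279 to 1724 up, 1200 to 1627 down) and 444 to 1325 in the interaction (170 to 558 up, 274 to 767 down); the cause was not tested.

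Of 193 genes named with values 178 passed, and 172 of these kept the call under each alternative, leaving out each library included. None of the named genes past the threshold changed sign. In the fit of all 16 libraries CYP4F2, HNF4A, MT2A, OTC, SCD and TDO2 lost the call, with edgeR adjusted p from 0.052 to 0.15. Among named genes that had not passed, 5 passed the threshold under 1 or more alternatives. Also among genes that had not passed, the sign depended on the library left out for ATF3 (−0.097 to 0.032), IL6 (−0.78 to 0.0041) and PLIN5 (−0.26 to 0.12). Of 2516 list counts under the alternatives, 167 moved by more than 1.5 times.

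Depth limits changes of weakly expressed genes. In data simulated for this comparison, 200 of 16583 genes were changed, all with a control mean of at least 2 CPM. Of these changes, 79% of the 1.5-fold and 91% of the 2-fold ones were found, and 5.03% of calls were false. The rates do not cover weaker genes, and the simulation changed far fewer genes than the 3334 called in the data.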

Other observations

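Several genes outside the lists were among the largest changes that reached 2 CPM in a group mean, and their libraries did not overlap between groups. SLC16A13, a monocarboxylate transporter, went from 3.83 ± 0.172 to 14.5 ± 0.872 CPM (1.93 ± 0.13). AADAC, a microsomal esterase that acts on lipids and drugs, stood at 33.8, 41.2, 22.4 and 34.3 CPM in the controls and 93.3, 93.2, 97.2 and 95.1 CPM with fatty acids (1.52 ± 0.11). FMO1, a flavin monooxygenase, went from 0.404 ± 0.189 to 2.05 ± 0.733 CPM (2.34 ± 0.41). ALPP, a placental alkaline phosphatase with close copies, went from 0.918 ± 0.331 to 5.14 ± 0.579 CPM (2.48 ± 0.25) and changed by 2.71 ± 0.28 with formoterol. On the side of the falls were DUSP4, a phosphatase of MAP kinases (8.33 ± 0.554 to 2.57 ± 0.580 CPM, −1.69 ± 0.18), DGKI, a diacylglycerol kinase (−1.61 ± 0.39), GSDMC, a gasdermin (−1.91 ± 0.33), and DGCR6 (30.8 ± 2.52 to 8.36 ± 1.94 CPM, −1.88 ± 0.13), which has a close copy and overlaps PRODH on the other strand. The size of the DGKI fall rests in part on control replicate 2, at 5.26 CPM against 1.74 to 2.18 CPM in the other controls.

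Short genes were called less often. Among the 4256 tested genes with at most 2517 annotated exon bases, 5.97% rose and 6.56% fell, and in the next 3 equal-sized classes by length 11.5%, 13.0% and 11.5% rose and 7.71%, 10.5% and 11.7% fell. The median log2 fold change was −0.034 in the shortest class and 0.010, 0.013 and 0.00 in the others.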
